A study of Mus musculus with 22 samples.

Results

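The kinases of translation initiation factor eIF2 and the stress genes whose mRNAs are controlled by upstream open reading frames (uORFs) form a set of 10 genes, defined by their known roles. They are the 4 kinases Eif2ak1, Eif2ak2, Eif2ak3 and Eif2ak4, the transcription factors Atf4, Atf5 and Ddit3, the phosphatase subunits Ppp1r15a and Ppp1r15b, and Ifrd1. All 10 were among the 10516 genes quantified. Ribosome footprints (RPF-seq) and total RNA (RNA-seq) had been sequenced from the same lysates of NIH3T3 cells, an established line of mouse embryonic fibroblasts. The cells carried a lentivirally delivered short hairpin RNA, either Denr shRNA1 or Denr shRNA2 (3 lysates each, 6 knockdown lysates in all), or a control hairpin, scramble shRNA (3 lysates) or Gfp shRNA (2 lysates). Every group, controls included, was treated with cycloheximide at 100 µg/ml for 2 min before lysis, and no stress treatment is named for any of them.

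DENR acts with its partner MCTS1 on the small ribosomal subunit and is known for its part in reinitiation, by which a ribosome that has translated a uORF resumes scanning and starts again downstream. The eIF2 kinases respond to haem shortage and mitochondrial stress (Eif2ak1, HRI), double-stranded RNA (Eif2ak2, PKR), unfolded protein in the endoplasmic reticulum (Eif2ak3, PERK) and amino acid shortage (Eif2ak4, GCN2), and phosphorylate the α subunit of eIF2. This lowers translation of most mRNAs, while a few mRNAs with uORFs, such as those of the other 6 genes, are translated better. Whether eIF2 was phosphorylated in these cells was not measured in these files.

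Reads on CDS and 5′ UTR numbered 10927303 to 21649878 per RPF-seq library and 8514080 to 20109700 per RNA-seq library. Relative to the mean of the 5 controls, Denr RNA was lower by 75.6% to 80.9% with shRNA1 and by 88.5% to 91.4% with shRNA2. All 10 fibroblast markers examined were expressed, with a summed RNA level of 9062 to 11665 RPKM (reads per kilobase of region, scaled to library size) after knockdown and 8652 to 11083 RPKM in controls. Of the markers of epithelial, haematopoietic, endothelial and muscle cells, 4 of 18 were in the tables, 1 for each cell type. The RNA of 1 of these, Lyz2, reached 52.3 RPKM, and that of Cdh1, Cdh5 and Des stayed at or below 4.05 RPKM. Where a level differs between lysates, fewer cells of a kind and less RNA per cell cannot be told apart in bulk samples.

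The start codons around which the comparisons turn are those of the uORFs of Atf4, Atf5, Ddit3 and Ppp1r15b, the 4 members for which at least 1 difference between knockdown and control lysates passed the threshold. They are shown 5′ to 3′ with 9 nt before and 6 nt after the ATG, which stands in capitals. Positions are those of the ATG in GRCm38, and the transcripts are those with the longest CDS in GENCODE vM21. In Atf4 (ENSMUSG00000042406, + strand of chromosome 15), uORF1 lies at chr15:80255303-80255305 and has 36 codons, uORF2 at chr15:80255582-80255584 with 3 codons, and uORF3 at chr15:80255681-80255683 with 59 codons. uORF3 ends 83 nt inside the CDS, which starts at chr15:80256299-80256301 and follows the stop of uORF2 by 184 nt.
Atf4 uORF1: ttttctctcATGgggcct
Atf4 uORF2: gcggccaccATGgcgtat
Atf4 uORF3: gcctaagccATGgcgctc
Atf4 CDS: ccccacaacATGaccgag

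Atf5 (ENSMUSG00000038539, − strand of chromosome 7) has a similar order, a short uORF followed by a longer one that runs into the CDS. Its uORF1 at chr7:44816535-44816537 has 3 codons and ends 240 nt before the CDS. Its uORF2 at chr7:44816404-44816406 has 58 codons and ends 56 nt inside the CDS, which starts at chr7:44815164-44815166.
Atf5 uORF1: gcccgcgcaATGgctctg
Atf5 uORF2: ttcgccgccATGgagtcc
Atf5 CDS: gtcacagccATGtcactc

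Ddit3 (ENSMUSG00000025408, + strand of chromosome 10) and Ppp1r15b (ENSMUSG00000046062, + strand of chromosome 1) have no uORF that overlaps the CDS. The 2 ATGs of Ddit3, at chr10:127290829-127290831 and chr10:127290838-127290840, share a frame and a stop codon 26 nt before the CDS, and give 34 and 31 codons. Ppp1r15b has uORFs of 2, 8 and 51 codons at chr1:133131245-133131247, chr1:133131468-133131470 and chr1:133131517-133131519, the last of which ends 74 nt before the CDS.
Ddit3 uORF1: gattatatcATGttgaag
Ddit3 uORF2: atgttgaagATGagcggg
Ddit3 CDS: cgtgcagtcATGgcagct
Ppp1r15b uORF1: gttcggcgaATGacgtga
Ppp1r15b uORF2: gtcttctctATGgtggag
Ppp1r15b uORF3: ctagccgggATGgaccta
Ppp1r15b CDS: ggaaaggagATGgagaca

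An AUG-initiated uORF of at least 9 nt was found on 8 of the 10 members, and on 49.86% of all genes with an annotated 5′ UTR. At least 2 uORFs were found on 6 members (27.92% of all genes), and 5 members had one that overlaps the CDS (16.19% of all genes). The members other than the kinases were chosen as genes controlled by uORFs, so these counts follow in part from that choice. Of the remaining members, Ppp1r15a had 6 uORFs, 1 of them overlapping, Ifrd1 had 1 of 52 codons that ends 43 nt before the CDS, Eif2ak3 had 3 and Eif2ak2 had 1. Eif2ak1 and Eif2ak4 had none on the transcript used, although another annotated transcript of Eif2ak4 carried 10. For 4 members the 5′ UTR drawn is not the one quantified. The 5′ UTR lengths implied by the deposited values were 550 nt for Atf5 (373 nt annotated), 886 nt for Ppp1r15a (764 nt), 453 nt for Ifrd1 (233 nt) and 979 nt for Eif2ak4 (91 nt). No annotated transcript of these genes had that length, and uORFs in the additional stretches are not mapped here. For Eif2ak3 the implied 5′ UTR equalled the annotated 211 nt, but the implied CDS of 3372 nt was longer than the annotated 3345 nt.

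**Figure D1:**
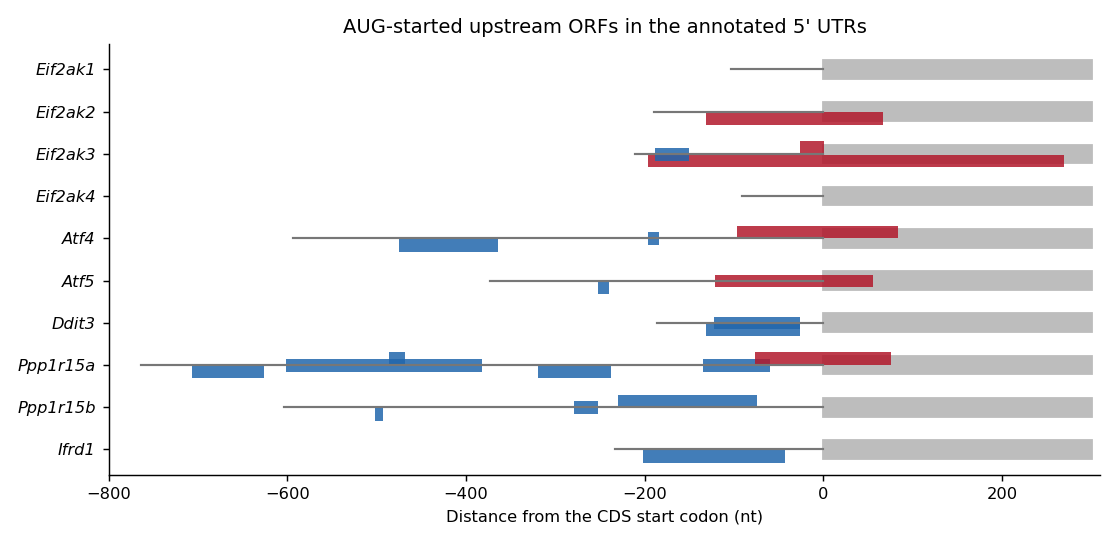
Map of the AUG-initiated uORFs of the members on the transcript with the longest CDS, with distance from the CDS start in nt on the x axis and 1 line per gene. Grey boxes are the first part of the CDS, red boxes uORFs that overlap it and blue boxes the other uORFs, and the overlapping uORFs of Atf4 and Atf5 reach 83 and 56 nt into the CDS.

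Translation efficiency (TE) was the log2 CDS value in RPF-seq minus the log2 CDS value in RNA-seq of a lysate. Since both assays were normalised separately, a TE of 0 is no absolute level, and members are placed here by their rank among all genes. In control lysates 9 of the 10 members lay below the median gene (−0.08). Ppp1r15a, the stress-induced subunit that directs protein phosphatase 1 to eIF2α, was lowest with a log2 TE of −3.14 ± 0.11 (SD, n = 5), and 0.732% of genes lay below it. Atf4, the main transcriptional effector of the pathway, followed with −2.69 ± 0.28, above 1.502% of genes, although its RNA was among the most abundant of all genes (rank 75, 1191 RPKM in the mean).

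Ddit3, which encodes the transcription factor CHOP, had a control log2 TE of −1.85 ± 0.24, Eif2ak4 −1.79 ± 0.14, Ifrd1 −1.43 ± 0.11 and Eif2ak3 −1.21 ± 0.11 (SD, n = 5 each). Atf5, a relative of Atf4, had −1.03 ± 0.09 and Ppp1r15b, the constitutive phosphatase subunit, −0.98 ± 0.03. Eif2ak1 (−0.53 ± 0.08) and Eif2ak2 (0.20 ± 0.28) were the highest. In this order the control ranges of 5 neighbouring pairs overlapped, namely Ppp1r15a and Atf4, Ddit3 and Eif2ak4, Ifrd1 and Eif2ak3, Eif2ak3 and Atf5, and Atf5 and Ppp1r15b. The other 4 neighbouring pairs lay apart, the widest step being 0.84 between Atf4 and Ddit3.

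Reads from a whole 5′ UTR include those of its uORFs but cannot be assigned to single ones here. In the controls the log2 ratio of 5′ UTR to CDS footprints, per length, was 2.02 for Ddit3, 2.02 for Atf5, 1.99 for Ppp1r15a and 1.91 for Atf4, each above at least 96.8% of the 5175 genes with sufficient 5′ UTR coverage (at least 20 reads in at least 9 of 11 RPF-seq libraries). Ppp1r15b (0.80) and Ifrd1 (0.73) lay above 87.4% and 86.3% of these genes, Eif2ak3 (0.25) and Eif2ak2 (−0.43) above 77.6% and 62.0%. The median gene had −0.89. Eif2ak1, with 10 to 35 reads on its 5′ UTR, and Eif2ak4, with 0 to 3, did not reach the coverage, so the 5′ UTR could be tested in 8 of the 10 members, against 49.2% of all genes.

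With Denr depleted, the TE of 1 of the 10 members fell, and the share of genes called lower over the whole table was 0.475% (limma, FDR 0.1). This member was Atf5. Its control lysates had a log2 TE of −1.03, −1.13 and −1.06 with scramble shRNA and −0.89 and −1.02 with Gfp shRNA, and the 6 knockdown lysates ranged from −1.81 to −1.44 with a median of −1.56. The groups did not overlap, all knockdown lysates being lower. The difference was −0.56 on the log2 scale (standard error 0.09, adjusted p = 0.0234 from limma), a TE lower by 32.1% (95% interval of the log2 difference −0.75 to −0.37). It remained past the threshold in each of the 11 fits that left out a lysate (−0.59 to −0.51). With shRNA1 alone it was −0.53 (adjusted p = 0.333 from limma), with shRNA2 alone −0.59 (adjusted p = 0.0913 from limma), and with scramble shRNA alone as control −0.51 (adjusted p = 0.232 from limma).

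The CDS of Atf5 had 170.0, 179 and 178 RPKM of RNA with scramble and 206 and 197 RPKM with Gfp shRNA, and 219.8 to 271 RPKM (median 232) after knockdown, so that no knockdown lysate overlapped the controls. RNA was higher by 27.3% (0.35 on the log2 scale, standard error 0.07, adjusted p = 0.0322 from limma). Without scramble replicate 1 or without scramble replicate 2 this missed the threshold, with differences of 0.32 and 0.34 (adjusted p = 0.109 from limma in both fits). Footprints on the CDS were 83.0, 81.7 and 85.6 RPKM with scramble, 111 and 97.0 RPKM with Gfp, and 68.4 to 92.2 RPKM (median 78.3) after knockdown, a difference of −0.21 that did not pass (standard error 0.09, adjusted p = 0.188 from limma). The groups overlapped, 3 knockdown lysates lying below all controls. The last 56 nt of uORF2 lie inside the CDS, so footprints there count as CDS footprints here.

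Atf4 passed the threshold in RNA and not in TE. Its log2 TE in the controls was −2.68, −2.58 and −3.12 with scramble and −2.74 and −2.34 with Gfp shRNA, a range that spanned all 6 knockdown lysates (−3.01 to −2.62, median −2.87). The difference of −0.14 had a standard error of 0.13 (adjusted p = 0.994 from limma) and a 95% interval of −0.43 to 0.15. This interval overlaps that of Atf5 (−0.75 to −0.37). The difference between both genes was not tested. RNA of the Atf4 CDS was 1191, 1152 and 1176 RPKM with scramble, 1243 and 1192 RPKM with Gfp, and 1417 to 1806 RPKM (median 1498) after knockdown. All knockdown lysates were above all controls, and RNA was higher by 29.9% (0.38, standard error 0.08, adjusted p = 0.0266 from limma). With shRNA1 alone the difference was 0.39 (adjusted p = 0.125 from limma).

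CDS footprints of Atf4 were 186, 193 and 135 RPKM with scramble, 187 and 235 RPKM with Gfp, and 195 to 238 RPKM (median 219) after knockdown. All 6 knockdown lysates lay above the control mean but only 1 above every control, and the difference of 0.24 (standard error 0.11) did not pass (adjusted p = 0.215 from limma). It did without Gfp replicate 2 (0.33, adjusted p = 0.0594 from limma) and with scramble shRNA alone as control (0.36, adjusted p = 0.0479 from limma), while without scramble replicate 3 the difference was 0.13 (adjusted p = 0.424 from limma). The stretch of uORF3 inside the CDS, 83 nt, is counted with the CDS.

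Of the 3 members whose RNA rose (Atf4, Atf5 and Ddit3, 3 of 10, against 2.68% of all genes called higher), Ddit3 had the largest difference and the least even one. Its RNA was 76.3, 81.6 and 97.0 RPKM with scramble and 112 and 108 RPKM with Gfp shRNA. It was 183, 144 and 152 RPKM with shRNA1, above every control, and 124, 113 and 108 RPKM with shRNA2, of which the last lay within the range of the controls. Over both hairpins RNA was higher by 43.7% (0.52, standard error 0.14, adjusted p = 0.0854 from limma). The call was lost on leaving out shRNA1 replicate 2 or 3, shRNA2 replicate 1 or any of the 3 scramble lysates (differences of 0.45 to 0.55, adjusted p from 0.123 to 0.225, limma), with libraries centred on their median (adjusted p = 0.111 from limma), and with shRNA2 alone (0.29, adjusted p = 0.262 from limma), while shRNA1 alone gave 0.76 (adjusted p = 0.0510 from limma).

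CDS footprints of Ddit3 were 22.2 to 30.2 RPKM in the 5 controls, 33.7 to 43.5 RPKM with shRNA1 and 22.1 to 29.5 RPKM with shRNA2, so that only the shRNA1 lysates stood above the controls. The pooled difference was 0.27 (standard error 0.14, adjusted p = 0.275 from limma). Its log2 TE, −2.49 to −1.72 after knockdown and −2.11 to −1.496 in controls, overlapped (difference −0.26, standard error 0.15, adjusted p = 0.876 from limma). These values rest on 126 to 301 footprint reads per library, for which counting alone gives an error of 8.91% to 5.76%.

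**Figure D2:**
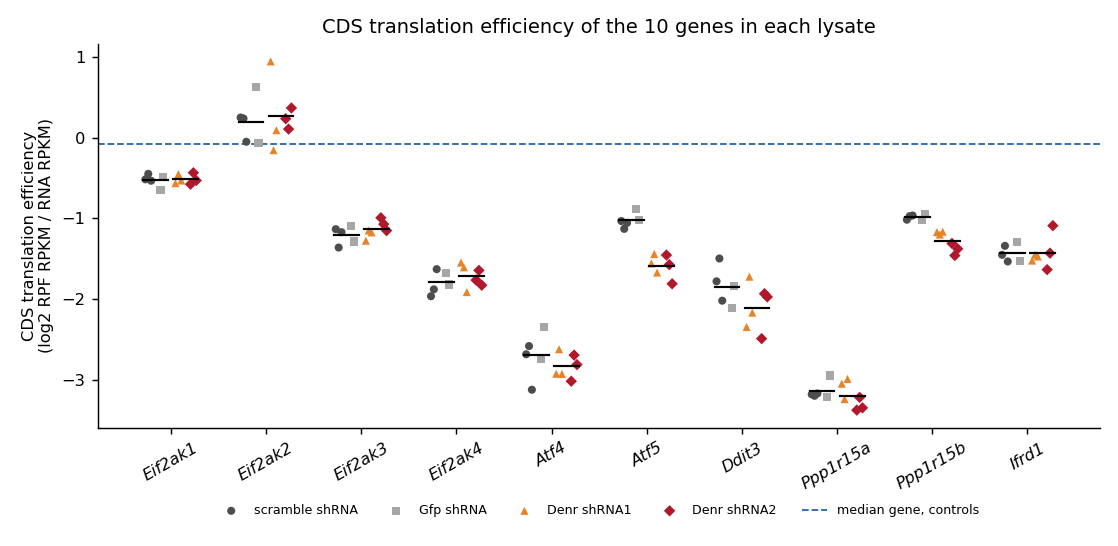
Log2 TE of the 10 members (y axis, log2 CDS footprints minus log2 CDS RNA) in each of the 11 lysates, points coloured by hairpin, with lines at the means of knockdown and of control lysates. The groups of Atf5 and Ppp1r15b do not overlap, while those of the other 8 members do.

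The phosphatase subunit Ppp1r15b was the other member whose TE did not overlap between the groups. Complete separation towards lower TE was found in 1.32% of all genes and towards higher RNA, as for Atf4 and Atf5, in 2.63%. The control log2 TE of Ppp1r15b was −1.02, −0.97 and −0.96 with scramble and −1.02 and −0.95 with Gfp shRNA, and the knockdown lysates had −1.46 to −1.17 with a median of −1.26. The difference of −0.30 (standard error 0.08, 95% interval −0.46 to −0.13) had an unadjusted p of 0.0023 in limma but did not pass over all genes (adjusted p = 0.229). Changes of 0.3 in TE set in simulated data were recovered in 0% of genes at this number of lysates and changes of 0.5 in 10%. Recovery at the depth and spread of Ppp1r15b itself was not tested.

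Footprints on the Ppp1r15b CDS were 44.6 to 49.1 RPKM in controls, 43.4 to 46.7 RPKM with shRNA1 and 37.4 to 38.0 RPKM with shRNA2. The pooled difference of −0.20 (standard error 0.07) lay just outside the threshold (adjusted p = 0.106 from limma). It passed without shRNA1 replicate 1 (adjusted p = 0.0666 from limma), without Gfp replicate 1 (adjusted p = 0.0993 from limma), with shRNA2 alone (−0.33, adjusted p = 0.0194 from limma), with scramble alone as control (adjusted p = 0.0782 from limma) and by voom on the recovered reads (adjusted p = 0.0846 from limma). With shRNA1 alone it was −0.07 (adjusted p = 0.563 from limma). RNA was 90.4 to 97.1 RPKM in controls and 92.9 to 105 RPKM after knockdown, a difference of 0.09 (standard error 0.06, adjusted p = 0.453 from limma).

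Ppp1r15a, by contrast, had few footprints on its CDS, 47 to 108 reads per library, with 2.61 to 2.92 RPKM in controls and 1.94 to 3.21 RPKM after knockdown. Its RNA was 22.9 to 27.3 and 21.1 to 28.03 RPKM, and all 3 measures overlapped. The TE difference was −0.06 (95% interval −0.28 to 0.16). Ifrd1, a transcriptional coregulator, had RNA of 155 to 171 RPKM in controls and 122 to 197 RPKM after knockdown, and CDS footprints of 54.2 to 63.3 and 51.8 to 68.6 RPKM. Its TE difference was −0.005 (95% interval −0.22 to 0.22), and the sign of so small a value changed in several alternatives.

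Of the 4 kinases 0 passed in TE, CDS footprints or RNA by limma or voom, and 0 had an unadjusted p under 0.05. Of all genes 0.475%, 10% and 3.55% passed by limma, and 6.66%, 23.6% and 16.1% had an unadjusted p under 0.05. Eif2ak1 was the most even, with RNA of 31.7 to 34.9 RPKM in controls and 32.2 to 38.5 RPKM after knockdown, and CDS footprints of 22.2 to 23.8 and 21.9 to 26.6 RPKM. Its TE difference was 0.01 with a 95% interval of −0.13 to 0.16. Eif2ak2 was the least even, with RNA of 18.4 to 27.6 RPKM in controls and 15.0 to 28.1 RPKM after knockdown, and a TE difference of 0.07 whose interval ran from −0.32 to 0.45. Its footprints were steadier, 22.9 to 28.4 and 23.0 to 29.96 RPKM.

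Eif2ak3 had RNA of 16.1 to 23.4 RPKM in controls and 19.0 to 22.1 RPKM after knockdown, and CDS footprints of 7.12 to 10.5 and 8.37 to 10.2 RPKM. Its TE difference was 0.07 (95% interval −0.10 to 0.25). Footprints passed with scramble shRNA alone as control (0.28, adjusted p = 0.0535 from limma), and the Gfp lysates were the highest controls. Eif2ak4 had CDS footprints of 4.37 to 5.69 RPKM in controls and 5.10 to 6.11 RPKM after knockdown, all 6 above the control mean, with a difference of 0.19 (standard error 0.09, adjusted p = 0.213 from limma). Its TE difference was 0.08 (95% interval −0.13 to 0.29).

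In CDS footprints 0 of the 10 members passed by limma, where 10% of all genes did. At an unadjusted p under 0.05 there were 2 members (Atf5 and Ppp1r15b, both lower), against 23.6% of all genes (10.9% lower), and voom called 1. The median difference of the 10 members was −0.03 in TE, 0.05 in CDS footprints and 0.07 in RNA, beside −0.01, 0.007 and 0.03 over all genes.

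**Figure D3:**
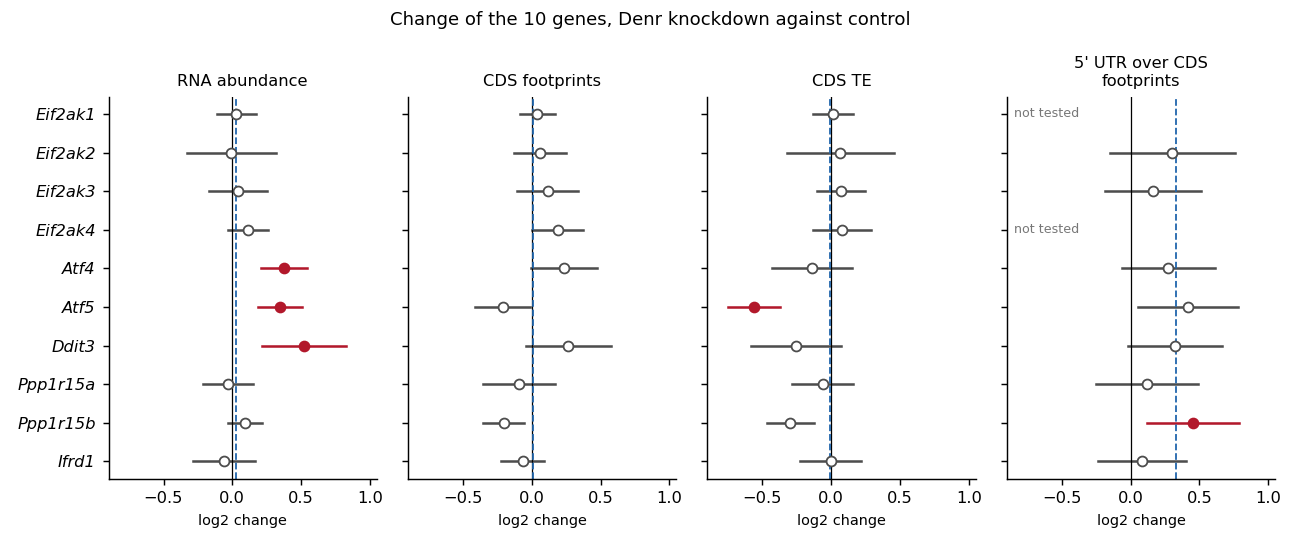
Difference between knockdown and control lysates on the log2 scale (x axis) for each member in RNA, CDS footprints, CDS TE and the ratio of 5′ UTR to CDS footprints, with 95% intervals from limma, red filled points where the adjusted p was below 0.1 and a dashed line at the median of all genes. The filled points are Atf4, Atf5 and Ddit3 in RNA, Atf5 in TE and Ppp1r15b in the ratio.

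Relative 5′ UTR translation, the ratio of 5′ UTR to CDS footprints, was higher after knockdown for nearly all genes, with a median difference of 0.33 over the 5175 covered genes and 0.30 for the 5′ UTR footprints alone. The members have to be read against this shift. All 8 covered members had positive differences, from 0.08 (Ifrd1) to 0.45 (Ppp1r15b), with a median of 0.29, slightly below that of all genes. After libraries were centred on their median the differences ran from −0.24 (Ifrd1) to 0.13 (Ppp1r15b), and 5 of the 8 (Atf4, Ppp1r15a, Ifrd1, Eif2ak2 and Eif2ak3) were negative.

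Ppp1r15b alone passed the threshold in relative 5′ UTR translation (1 of 8, where 18.1% of all covered genes were called higher). Its 5′ UTR held 35.4%, 37.2% and 29.7% of its footprints with scramble, 29.95% and 35.6% with Gfp shRNA, and 34.6% to 44.9% (median 41.2%) after knockdown. One knockdown lysate, shRNA1 replicate 1, lay within the range of the controls. The difference of the log2 ratio was 0.45 (standard error 0.16, adjusted p = 0.0860 from limma), and 0.13 after centring (adjusted p = 0.790 from limma). It also missed the threshold in 7 of the 11 fits that left out a lysate, namely shRNA1 replicate 2 or 3, shRNA2 replicate 1 or 2, Gfp replicate 1 and scramble replicate 1 or 3 (adjusted p from 0.117 to 0.187, limma), and with each Denr hairpin or scramble shRNA alone.

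For Atf5 the 5′ UTR held 68.0% to 75.8% of footprints in controls and 72.3% to 81.1% after knockdown, 5 of 6 knockdown lysates lying above all controls. The difference of the log2 ratio was 0.42 (standard error 0.17, adjusted p = 0.115 from limma) and 0.09 after centring, and it passed without shRNA1 replicate 1 (adjusted p = 0.0963 from limma) or Gfp replicate 2 (adjusted p = 0.0736 from limma). For Atf4 the share was 64.2% to 70.9% and 66.9% to 77.0% (0.27, standard error 0.16, adjusted p = 0.219 from limma). For Ddit3 it was 55.3% to 63.2% and 60.6% to 69.0% (0.32, standard error 0.16, adjusted p = 0.165 from limma).

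**Figure D4:**
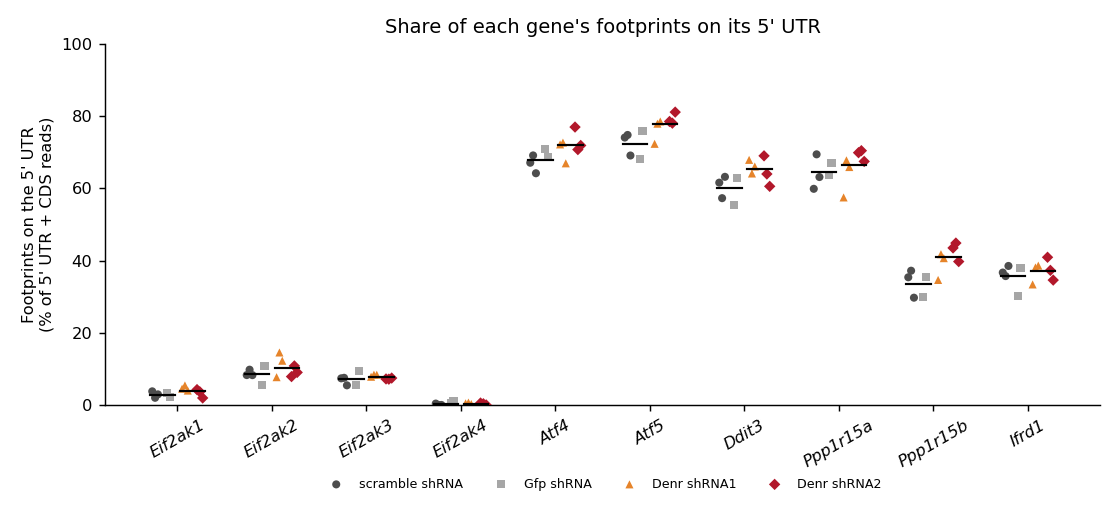
Percentage of a member's 5′ UTR and CDS footprint reads that lay on the 5′ UTR (y axis) in each lysate, by hairpin, with lines at the means of control and knockdown lysates. The share lies between 55.3% and 81.1% for Atf4, Atf5 and Ddit3 and between 29.7% and 44.9% for Ppp1r15b.

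Footprints on the 5′ UTR itself, without division by the CDS, rose for Atf4 and Ddit3 (2 of 8, where 23% of covered genes were called higher). That of Atf4 had 667, 760 and 427 RPKM with scramble, 799.8 and 908 RPKM with Gfp, and 694 to 1209 RPKM (median 1044) after knockdown, 5 of 6 knockdown lysates being above all controls. The difference was 0.51 (standard error 0.20, adjusted p = 0.0973 from limma) and 0.20 after centring (adjusted p = 0.683 from limma), and it missed the threshold in 8 of the 11 fits without a lysate, all but those without shRNA1 replicate 3, Gfp replicate 2 or scramble replicate 2 (adjusted p from 0.104 to 0.211, limma). Without scramble replicate 3 the 5′ UTR difference was 0.34, and with shRNA1 or shRNA2 alone it was 0.44 or 0.58 (adjusted p = 0.281 from limma in both). In RNA-seq the 5′ UTR of Atf4 had 517 to 639 RPKM in controls and 575 to 798 RPKM after knockdown, and the log2 ratio of 5′ UTR to CDS was −1.40 to −1.03 after knockdown and −1.19 to −0.85 in controls (difference −0.20, unadjusted p = 0.052, adjusted p = 0.960 from limma, where 0 of the 5175 genes passed and 4.27% had an unadjusted p under 0.05).

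The 5′ UTR of Ddit3 had 96.3, 105 and 111 RPKM of footprints with scramble and 87.0 and 139 RPKM with Gfp shRNA. It had 207, 211 and 178 RPKM with shRNA1, above all controls, and 133, 142 and 114 RPKM with shRNA2, of which 142 RPKM lay above all controls. The difference was 0.59 (standard error 0.18, adjusted p = 0.0533 from limma) and 0.28 after centring (adjusted p = 0.454 from limma). It missed the threshold without shRNA1 replicate 2, Gfp replicate 1 or scramble replicate 1 (adjusted p from 0.1001 to 0.126, limma) and with shRNA2 alone (0.28, adjusted p = 0.440 from limma). In RNA-seq the 5′ UTR of Ddit3 had 84.5 to 142 RPKM in controls and 117 to 226 RPKM after knockdown. The log2 ratio of 5′ UTR to CDS in RNA-seq differed by −0.001 (adjusted p = 0.999 from limma). On Atf5 the 5′ UTR footprints were 295 to 469 RPKM in controls and 372 to 466 RPKM after knockdown, a difference of 0.21 (adjusted p = 0.315 from limma) that was −0.11 after centring.

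Since shRNA2 left less Denr RNA than shRNA1, the members were also compared between both hairpins, 3 lysates each. In TE 0 of the 10 members and 0 of all genes passed by limma, no member had an unadjusted p under 0.05, and 3.73% of all genes did. The TE of Atf5 differed by −0.06 (shRNA2 minus shRNA1, 95% interval −0.33 to 0.22), that of Ppp1r15a by −0.22 (95% interval −0.51 to 0.07) and that of Ppp1r15b by −0.20 (95% interval −0.42 to 0.01, unadjusted p = 0.0607 in limma).

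CDS footprints were lower with shRNA2 than with shRNA1 in 3 of the 10 members (Ddit3, Ppp1r15a and Ppp1r15b), and 4.01% of all genes were called lower. For Ppp1r15b they were 46.7, 44.6 and 43.4 RPKM with shRNA1 and 37.4, 37.4 and 38.0 RPKM with shRNA2. The difference was −0.26 on the log2 scale (standard error 0.06, adjusted p = 0.0217 from limma), and it passed in each of the 6 fits that left out one of these lysates.

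For Ddit3 the CDS footprints were 36.0, 43.5 and 33.7 RPKM with shRNA1 and 22.1, 29.5 and 27.4 RPKM with shRNA2. The difference of −0.52 (standard error 0.13, adjusted p = 0.0388 from limma) was lost without shRNA1 replicate 2 (adjusted p = 0.146 from limma) or shRNA2 replicate 1 (adjusted p = 0.138 from limma). Ddit3 was also the only member whose RNA differed, by −0.47 (standard error 0.12, adjusted p = 0.0954 from limma; 1 of 10, with 0.932% of all genes called lower). This call was lost in each of the 6 fits that left out one of these lysates (adjusted p from 0.132 to 0.357, limma) and when genes below a mean of 1 RPKM were left out.

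For Ppp1r15a they were 3.21, 2.88 and 2.89 RPKM with shRNA1 and 1.94, 2.34 and 2.43 RPKM with shRNA2. The difference was −0.41 (standard error 0.12, adjusted p = 0.0772 from limma). In each of the 6 fits that left out one of these lysates the call was lost (adjusted p from 0.108 to 0.240, limma). Against the same 5 controls, which both comparisons share, the CDS footprints of Ppp1r15a differed by 0.11 with shRNA1 alone (adjusted p = 0.624 from limma) and by −0.30 with shRNA2 alone (adjusted p = 0.193 from limma).

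**Figure D5:**
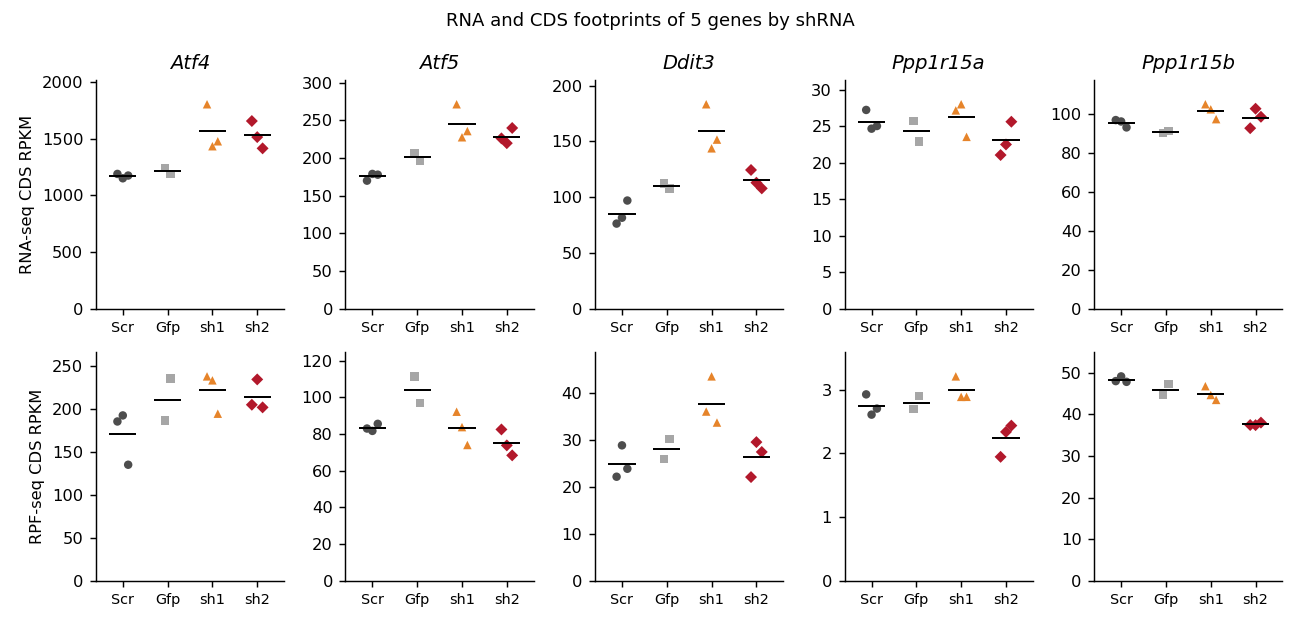
CDS RPKM of 5 members (y axis, linear and starting at 0) in RNA-seq (upper panels) and RPF-seq (lower panels), 1 point per lysate by hairpin (Scr, scramble; Gfp; sh1 and sh2, Denr shRNA1 and shRNA2), with the mean as a line. RNA of Ddit3 is 144 to 183 RPKM with shRNA1 and 108 to 124 RPKM with shRNA2, and the CDS footprints of Ppp1r15b are 37.4 to 38.0 RPKM with shRNA2.

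The 2 control hairpins were compared in the same way (Gfp minus scramble, 2 lysates against 3). In TE 0 of the 10 members and 0 of all genes passed by limma, and at an unadjusted p under 0.05 there were 0 members and 2.22% of genes. CDS footprints of Eif2ak3 were 10.5 and 9.55 RPKM with Gfp and 8.26, 7.31 and 7.12 RPKM with scramble, higher by 0.40 (standard error 0.11, adjusted p = 0.0621 from limma; 1 of 10, with 5.38% of all genes called higher). The call was lost without Gfp replicate 1 or 2 or scramble replicate 2 or 3 (adjusted p from 0.133 to 0.233, limma). The CDS footprints of Atf5, higher with Gfp by 0.32, lay just outside (standard error 0.10, adjusted p = 0.104 from limma). In RNA 0 of the 10 members and 0.704% of genes passed by limma. At an unadjusted p under 0.05 there were 2 members, Eif2ak3 and Ddit3, and 9.69% of genes, and Ddit3 RNA was higher with Gfp by 0.38 (adjusted p = 0.333 from limma).

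Around the members, the regulators of the kinases and the machinery on which they act were examined between knockdown and control lysates, among them the eIF2 and eIF2B subunits, the catalytic subunits of protein phosphatase 1, and the activators of the kinases. All 20 listed genes were measured, and 0 passed in TE, CDS footprints or RNA by limma. At an unadjusted p under 0.05 there were 1, 5 and 1, against 6.66%, 23.6% and 16.1% of all genes. The voom fits called 0, 1 and 0, against 53, 1178 and 425 of all 10516 genes. TE differences ran from −0.21 (Oma1, the mitochondrial protease that relays stress to Eif2ak1) to 0.18 (Ppp1cc), and RNA differences from −0.25 (Ppp1ca) to 0.20 (Eif2b2). The medians were 0.01 in TE, −0.07 in footprints and −0.08 in RNA.

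Targets of ATF4 and CHOP were examined because the RNA of both factors was higher, and 22 of 25 listed genes were measured. In RNA 2 rose and 0 fell by limma, where 2.68% of all genes were called higher. Nupr1, a stress-induced chromatin protein, had 118 ± 6.83 RPKM after knockdown (SD, n = 6) and 82.0 ± 7.98 RPKM in controls (SD, n = 5), a difference of 0.53 (standard error 0.08, adjusted p = 0.00454 from limma). Trib3, the pseudokinase induced by CHOP, had 26.02 ± 4.14 and 16.99 ± 2.88 RPKM (0.61, standard error 0.13, adjusted p = 0.0279 from limma), and did not pass with shRNA2 alone (0.47, adjusted p = 0.108 from limma). All 6 knockdown lysates lay above all 5 controls in the RNA of both genes.

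CDS footprints rose for 3 of the 22 targets and fell for 1 by limma, where 10% of all genes were called in either direction. Nupr1 rose by 0.48 (adjusted p = 0.0242 from limma), Trib3 by 0.44 (adjusted p = 0.0247 from limma) and Ddit4, an inhibitor of mTORC1, by 0.44 (adjusted p = 0.0256 from limma). The latter pair missed the threshold with shRNA2 alone (adjusted p = 0.145 and 0.112 from limma). Psat1, an enzyme of serine synthesis, was lower by 0.17 on the log2 scale in footprints (−0.17, adjusted p = 0.0995 from limma), a call lost in 10 of the 11 fits without a lysate, all but that without Gfp replicate 2 (adjusted p from 0.107 to 0.211, limma), with median centring and with either Denr hairpin alone (adjusted p = 0.244 and 0.233 from limma). In TE 0 of 22 passed by limma or voom, and 0 had an unadjusted p under 0.05. In CDS footprints 10 of 22 had one by limma, against 23.6% of all genes, and in RNA 4, against 16.1%. By voom 2 were called in RNA and 6 in footprints. The medians of the list were −0.004 in TE, −0.03 in footprints and −0.05 in RNA.

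Of 10 other genes whose uORFs have been linked to eIF2 phosphorylation, 8 were measured, and 0 passed in TE by limma or voom or had an unadjusted p under 0.05. In CDS footprints 4 of 8 had one by limma, against 23.6% of all genes, and in RNA 3, against 16.1%. By voom 3 were called in footprints and 0 in RNA, against 1178 and 425 of all 10516 genes. Slc35a4, an mRNA known for a translated uORF, had the lowest control TE of these, −4.44, with 0.0951% of genes below, and a log2 ratio of 5′ UTR to CDS footprints of 4.00. Its TE differed by 0.02 (standard error 0.15) after knockdown. Sat1, the enzyme that acetylates polyamines, rose in CDS footprints by 0.48 (adjusted p = 0.0301 from limma; 0.31 and adjusted p = 0.155 with shRNA1 alone) and in RNA by 0.27 (adjusted p = 0.0767 from limma). The RNA call of Sat1 was lost without shRNA1 replicate 3 or any shRNA2 or scramble lysate (adjusted p from 0.112 to 0.225, limma) after centring (adjusted p = 0.117 from limma), by voom (adjusted p = 0.104 from limma) and with shRNA1 alone (0.20, adjusted p = 0.372 from limma). Eprs, the glutamyl-prolyl-tRNA synthetase, fell in footprints by 0.24 on the log2 scale (−0.24, adjusted p = 0.0870 from limma), which was lost without shRNA1 replicate 2, Gfp replicate 1 or any shRNA2 or scramble lysate (adjusted p from 0.120 to 0.176, limma), and with shRNA1 alone (−0.12, adjusted p = 0.434 from limma).

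Interferon-stimulated genes were included because Eif2ak2 is one and because double-stranded RNA activates it. Of 20 listed genes 8 were measured, with a summed RNA level of 51.6 to 69.9 RPKM after knockdown and 48.1 to 61.2 RPKM in controls, and 0 passed in TE, footprints or RNA by limma or voom, with 0, 1 and 1 at an unadjusted p under 0.05. Their medians were −0.04, 0.18 and 0.23. Of the 10 fibroblast markers 0 passed in these 3 measures by limma or voom, with 0, 4 and 2 at an unadjusted p under 0.05. The shares of all genes at this unadjusted p were 6.66%, 23.6% and 16.1%. Among the markers of other cells, the CDS footprints of Lyz2 were higher by 0.22 (adjusted p = 0.0824 from limma), a call lost without shRNA1 replicate 1 or any shRNA2 or scramble lysate (adjusted p from 0.107 to 0.191, limma), with shRNA1 alone and by voom. Its part in the results above was not tested.

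The genes whose log2 TE ran most alike with that of a member over the 11 lysates were sought among 10147 genes with a mean of at least 1 RPKM, as a description. For Atf4 they were Eci2 (Pearson r = 0.933), Clasrp (0.921) and Secisbp2 (0.909), and the TE of Secisbp2 differed by −0.008 between knockdown and control lysates. For Atf5 they were Pabpc4 (Pearson r = 0.938), Myh9 (0.928) and Anapc5 (0.926). The latter 3 were lower in TE after knockdown, by differences of −0.46 (adjusted p = 0.0478), −0.44 (adjusted p = 0.0615) and −1.38 (adjusted p = 0.00120, limma). Knockdown and control lysates entered the correlation together, and those of Atf5 did not overlap in TE. A lower TE of these 3 genes therefore follows from how they were chosen. The lysates that are compared share their depth and composition across genes.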

How the data were processed

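RPF-seq and RNA-seq of 11 lysates (22 libraries) were used. The authors trimmed reads with cutadapt, aligned them to rRNA, tRNA, Ensembl cDNA and the GRCm38.p2 genome with Bowtie2 2.2.1 and TopHat2 2.0.11, and defined expressed isoforms with Cufflinks 2.2.1 (versions from the submitters' processing notes). Footprints were assigned by A site and RNA reads by their 5′ end. In genes with several expressed isoforms, ambiguous reads went to the CDS before the 5′ UTR. The deposited values are RPKM of the CDS and 5′ UTR, which the authors had normalised by upper quartile with edgeR for each assay separately. Strand use is not given in the sources used here, and exons of 8 of the 10 members overlap those of opposite-strand genes by 12 to 640 nt.

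Groups were taken from the sample labels. Differences were tested in log2(RPKM + 0.1) with limma 3.58.1 (R 4.3.3) on 10516 genes, moderated and two-sided, with Benjamini-Hochberg adjustment and a threshold of 0.1 (FDR). A fold change on this scale understates that of low genes. Relative 5′ UTR translation was tested in 5175 genes with 20 5′ UTR reads in at least 9 RPF-seq libraries. The authors' tools for differential TE were not run. Whole reads were recovered from the RPKM steps (231352 of 231352 CDS values whole within 0.01) for depth, coverage and voom. In 1 RPF-seq library, scramble replicate 3, 143 5′ UTRs had 1 read and 290 had 2, unlike the others (424 to 557 and 301 to 399), so counting errors are lower limits.

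The rule for the members names genes and uses no measured value, but the members and gene lists were chosen with earlier results of these data known. Named genes were all members, Denr, list genes past the threshold (at most 6 a list) and the 3 genes most like Atf4 and Atf5 in TE. The genes at the ends of the kinase regulator list, Slc35a4 and the measured markers of other cell types were named after their values were seen. uORFs were read from GENCODE vM21 on GRCm38. The fit was tested on simulated data (200 of 10516 genes changed): TE differences of −0.3, −0.5 and −1 were found in 0%, 10% and 86.5% and RNA differences in 13%, 62.5% and 95.5%. Alternatives were other pseudocounts (0.01 and 1), a minimum mean RPKM of 1, median centring, each hairpin alone, scramble alone, each lysate left out, a replicate block and voom. Each replicate was a separate dish of cells of 1 line. The pooled fits of knockdown against control had no term for the hairpin. Their p-values therefore measure the spread between dishes together with differences between the hairpins of a group.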

Additional observations from a re-analysis of the deposited data

Results flagged for a closer look

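Dixon's criterion at the 95% level was applied in 76 tests, each on the values of a member in a group of 5 or 6 lysates. In 4 of the 76 tests a value stood apart from the rest of its group, which chance alone gives in about 1 test of 20. The log2 TE of Ppp1r15a was −2.944 in the control lysate Gfp shRNA replicate 2 and −3.21 to −3.17 in the other controls. The log2 ratio of 5′ UTR to CDS footprints of Ppp1r15a was 1.56 in shRNA1 replicate 1 and 2.07 to 2.36 in the other knockdown lysates. The log2 TE of Ifrd1 was −1.09 in shRNA2 replicate 3 and −1.63 to −1.43 in the others, and its log2 CDS footprints were 6.102 in shRNA1 replicate 1 and 5.70 to 5.84 in the others.

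The effects of the 2 Denr hairpins differed by a direct test (limma) in 3 members. CDS footprints were lower with shRNA2 than with shRNA1 by −0.5191 on the log2 scale for Ddit3, by −0.4077 for Ppp1r15a and by −0.256 for Ppp1r15b. RNA of Ddit3 differed by −0.4658. Of all genes, 4.01% were called lower in CDS footprints and 0.932% in RNA by limma. The footprint call of Ppp1r15a and the RNA call of Ddit3 were lost in every fit that left out a lysate of these hairpins. The footprint call of Ddit3 was lost without shRNA1 replicate 2 or shRNA2 replicate 1. That of Ppp1r15b was kept in every such fit.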

How the results depend on the processing

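The number of genes past the threshold in TE was 50. It was 1 with shRNA1 alone, 10 with scramble alone as control and 14 to 72 without 1 lysate. In CDS footprints 1053 became 2651 with scramble alone and 484 to 1946 without 1 lysate, and in RNA 373 became 159 with shRNA1 alone, 940 with scramble alone and 139 to 734 without 1 lysate. Median centring changed the split in RNA from 91 lower and 282 higher to 107 and 191. Relative 5′ UTR translation (939) gave 4 after centring, 5 with shRNA1 alone, 9 with shRNA2 alone, 514 with scramble alone, 131 at a 5′ UTR minimum of 1 RPKM and 38 to 1773 without 1 lysate. Footprints on the 5′ UTR (1198) gave 29 after centring, 411 with shRNA1 alone, 1 with shRNA2 alone and 383 to 1745 without 1 lysate. Between the Denr hairpins, footprint calls (1019) were 560 to 680 and RNA calls (217) 61 to 245 without 1 lysate. Between the control hairpins they were 154 to 1300 (892 in all lysates) and 1 to 47 (74). The cause was not tested.

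Over single genes, 1043 alternatives kept direction and side of the threshold, 106 lost a call, 20 gained one and 49 reversed. The reversals concerned values that had not passed. In TE, Eif2ak1 was −0.015 and Ifrd1 0.0082 with scramble alone, Ifrd1 0.0084 after centring, 0.043 with shRNA2 alone and 0.016 by voom, and Ppp1r15a 0.0498 with shRNA1 alone. With shRNA1 alone Ppp1r15a was also 0.11 in CDS footprints, 0.061 in RNA and −0.052 in relative 5′ UTR translation, and Ifrd1 0.023 in RNA. With shRNA2 alone Eif2ak1 was −0.014 in CDS footprints and −0.028 in RNA, and Ppp1r15a −0.011 in 5′ UTR footprints. After centring, relative 5′ UTR translation was −0.0503 for Atf4, −0.022 for Eif2ak2, −0.16 for Eif2ak3, −0.24 for Ifrd1 and −0.21 for Ppp1r15a. Footprints on the 5′ UTR were −0.11 for Atf5, −0.037 for Eif2ak3, −0.30 for Ifrd1, −0.29 for Ppp1r15a and −0.064 for Ppp1r15b, and with scramble alone −0.076 for Ifrd1.

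Signs also changed on leaving out a lysate. In TE the ranges were −0.018 to 0.033 for Eif2ak1, −0.071 to 0.17 for Eif2ak2, −0.074 to 0.035 for Ifrd1 and, between the Denr hairpins, −0.13 to 0.043 for Atf5. In RNA they were −0.0063 to 0.045 for Eif2ak1, −0.075 to 0.11 for Eif2ak2, −0.029 to 0.10 for Eif2ak3, −0.13 to 0.0076 for Ifrd1 and −0.071 to 0.011 for Ppp1r15a. For Ifrd1 they were −0.0076 to 0.13 in relative 5′ UTR translation and −0.053 to 0.054 in 5′ UTR footprints, where those of Ppp1r15a were −0.029 to 0.0795.

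Replicate numbers are shared between groups in the labels, with no word on what they mark. Deviations from the group means correlated between same-numbered lysates by 0.208 in footprints, 0.345 in RNA and 0.249 in TE on average, with 13, 11 and 12 of 15 pairs over 0.1, and 8, 8 and 9 of 11 lysates correlated best with their own number. With the replicate number as a block, calls were 58 in TE, 1940 in CDS footprints, 1003 in RNA, 2418 in relative 5′ UTR translation and 2289 in 5′ UTR footprints. Between the Denr hairpins the block gave 1812 in footprints and 965 in RNA, and between the control hairpins 1437 and 157. Calls gained by members with the block were Atf4 (0.28) and Ppp1r15b (−0.20) in CDS footprints, and Atf4 (0.31) and Atf5 (0.41) in relative 5′ UTR translation. Also gained were Eif2ak2 (0.33) and Ppp1r15b (0.27) in 5′ UTR footprints, and Atf5 footprints between the control hairpins (0.27). The calls that members had without the block were kept. Further calls of single members with 1 hairpin were gained by Ddit3 footprints with shRNA1 (0.53, adjusted p = 0.0337 from limma) and Ppp1r15b footprints with shRNA2 (−0.33, adjusted p = 0.0194 from limma) and lost by Atf5 RNA with shRNA1 (0.40, adjusted p = 0.118 from limma). Footprints on the 5′ UTR of Eif2ak3 passed with scramble alone (0.49) and without Gfp replicate 2 (0.44). The uORF count of Eif2ak4 was 0 on the transcript with the longest CDS and 10 on that with the longest 5′ UTR. Footprint reads per library were few on the 5′ UTR of Eif2ak1 (10 to 35) and Eif2ak4 (0 to 3) and on the CDS of Ppp1r15a (47 to 108).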
